A study of Mus musculus with 3 samples.

Results

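Matricellular proteins are secreted into the extracellular matrix without building its fibres, and there they tune adhesion and signalling. The 7 genes described here were taken by name from the count table. They comprise thrombospondin 1 (Thbs1), the CCN proteins Ctgf and Cyr61, periostin (Postn), tenascin C (Tnc), Sparc and fibronectin (Fn1), and all 7 were found among its 50507 gene symbols. The measurements were CEL-Seq2 libraries, in which the 3′ ends of polyadenylated transcripts are tagged with a library barcode and a molecular identifier and then sequenced in pools. Primary wild-type BL6 mouse embryonic fibroblasts (MEFs), reprogrammed at passage 2, carried lentiviruses with rtTA and a doxycycline-inducible tet-OSKM (STEMCCA) cassette for Oct4, Sox2, Klf4 and c-Myc. The medium held 2 µg/mL doxycycline, 3 µM chiron, 0.25 µM Alk5i (an inhibitor of the TGF-beta receptor), 50 µg/mL ascorbic acid and LIF.

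The 127 libraries used fell into 42 conditions. An untransfected time course covered day 0 to day 6 with 3 libraries a day. The other cells were reverse transfected with RNAiMAX 24 h before replating and induction and were collected on day 6. They had received 40 nM of pooled siRNAs against 1 of 33 targets (98 libraries, 3 per target but 2 for siMtf1), a non-targeting siRNA (nt, 3 libraries) or a mock transfection (Mock, 5 libraries). All groups shared the OSKM vectors, and all but day 0 shared the medium, Alk5i included. Day 0 is the point at which cells were put into this medium, so in each comparison with day 0 the time and the exposure to doxycycline, chiron, Alk5i, ascorbic acid and LIF cannot be told apart. Replicate numbers 1 to 3 mark the pool a library was sequenced in, and the study transfected in triplicate and calls its replicates independent. No source used here says whether they came from separate embryos or fibroblast preparations, so p-values measure the spread between these libraries only.

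Fibronectin forms fibrils that cells grip through integrins. Thrombospondin 1 binds CD47 and activates latent TGF-beta, and tenascin C and Sparc weaken cell attachment. Periostin links fibronectin, tenascin C and collagen. Ctgf and Cyr61 bind integrins, and their genes are standard targets of YAP and TAZ acting through TEAD factors. Fibroblasts make all of these proteins, and the loss of mesenchymal genes is an early event of MEF reprogramming.

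Library totals lay between 29656 and 235292 counts (median 73279), so low genes were measured with few counts. Values are given either as the count itself or as CPM, the usual scaling of a count by its library's total, here the total over the tested genes multiplied by edgeR's TMM factor. A gene was called when its adjusted p was under 0.05 in edgeR's quasi-likelihood test, which was fitted on 3013 genes with the replicate number as a block. Of the 7 genes, 5 passed the low-count filter: Thbs1 (5533 counts over all 127 libraries), Sparc (7528), Tnc (805), Fn1 (560) and Postn (257). Cyr61 (110 counts) and Ctgf (78) did not and are described by their counts. In a bulk library, fewer cells of a type and less RNA per cell cannot be told apart.

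In the GENCODE vM21 annotation of GRCm38, Thbs1 lies on chromosome 2 (118111876 to 118127133, plus strand) and Sparc on chromosome 11 (55394500 to 55423183, minus strand). Tnc lies on chromosome 4 (63959785 to 64047015, minus), Fn1 on chromosome 1 (71585520 to 71653200, minus) and Ctgf, listed there as Ccn2, on chromosome 10 (24595442 to 24598683, plus). Postn (54361109 to 54391037, plus) and Cyr61, listed as Ccn1 (145646976 to 145649981, minus), are both on chromosome 3. The exon that ends the longest coding transcript holds the end of the coding sequence and the 3′ UTR in each gene. Its length runs from 191 bases in Postn to 2112 in Thbs1. In Sparc it stops at 55395421 and in Postn at 54390452, short of the 3′ ends of these genes given above, so their 3′ tags may fall beyond it. The last 500 bases of none of the 7 transcripts matched another gene at 95% identity over 100 bases. For Sparc and Postn this search did not reach the outermost 3′ end. Exons of Thbs1, Ctgf, Tnc and Fn1 overlap 1 gene each on the opposite strand (Gm29233, Gm15270, 8030451A03Rik and Apol7d).

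RefSeq promoters (GRCm38.p6) were held for 4 of the 7 genes, namely Cyr61, Postn, Tnc and Sparc. The 250 bases before the start site are shown for 3 of them because these genes followed 3 different courses in the data: a peak on day 3 (Cyr61), a loss by day 1 (Postn) and a partial loss with higher levels in several siRNAs than in nt (Sparc). Capitals mark CATTCC (the TEAD motif; GGAATG on the other strand), TGANTCA (the AP-1 motif, its own reverse complement) and TATAAA (the TATA motif; TTTATA on the other strand), searched on both strands. The motifs do not overlap each other in these windows.
Cyr61, chr3:145649986-145650235, minus strand: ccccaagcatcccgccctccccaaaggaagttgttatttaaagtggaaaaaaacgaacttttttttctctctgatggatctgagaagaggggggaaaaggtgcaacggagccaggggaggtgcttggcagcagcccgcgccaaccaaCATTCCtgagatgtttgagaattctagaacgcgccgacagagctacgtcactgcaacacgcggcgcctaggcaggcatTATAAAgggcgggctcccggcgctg
Postn, chr3:54360857-54361106, plus strand: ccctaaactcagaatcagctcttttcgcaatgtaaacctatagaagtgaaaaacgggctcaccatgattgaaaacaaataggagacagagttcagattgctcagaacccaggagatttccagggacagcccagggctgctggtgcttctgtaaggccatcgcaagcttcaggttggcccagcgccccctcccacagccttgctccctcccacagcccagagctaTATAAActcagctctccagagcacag
Sparc, chr11:55420081-55420330, minus strand: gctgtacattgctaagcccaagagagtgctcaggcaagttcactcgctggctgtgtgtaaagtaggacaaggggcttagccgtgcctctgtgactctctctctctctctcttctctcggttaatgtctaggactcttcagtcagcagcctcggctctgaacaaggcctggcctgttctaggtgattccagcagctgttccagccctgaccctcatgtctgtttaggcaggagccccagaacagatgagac
Cyr61 held CATTCC at -103 and TATAAA at -25, counted from the start site, and Postn held TATAAA at -26. The Sparc window held none of the 3 motifs. It lies inside the GENCODE gene, upstream of the RefSeq start site and downstream of the gene's outermost 5′ end at 55423183, so it says nothing of promoters at other starts. The Postn window is 1 of 2 held for that gene. In 32851 promoter windows of the same length, CATTCC was found in 12.6%, TGANTCA in 6.75% and TATAAA in 12.4%. These matches describe the letters and not binding.

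Among the 33 siRNAs, the pools against Wdr5, Bard1 and Brca1 gave the 3 highest mean levels of Thbs1, while for Sparc siCdk1 lay above siBard1, and siCdk1, sip53 and siEp300 above siBrca1. WDR5 is a core subunit of histone H3K4 methyltransferase complexes, and BRCA1 and BARD1 form a ubiquitin ligase that acts in DNA repair. The siRNA library table gave 2 siRNAs for each of them. Per the study's methods a pool held a further siRNA, which is not analysed here, so the sequences and matches below cover part of each pool. Their antisense strands are shown with the seed, bases 2 to 8, in capitals.
siWdr5, exon 3: cAUAGUUUggcuuaacuggtg
siWdr5, exon 7: cACGGUUGaaaugaacggctg
siBard1, exon 3: uUGUCGGUuuaucuugaggtc
siBard1, exon 2: aGAAGAUGugcucacaucctc
siBrca1, exon 3: aAGGACAUugugaaggccctt
siBrca1, exon 4: aCUAAACCuugugcuuccctg
The 6 seeds were all different. Complements of the seeds of the 2 Wdr5 siRNAs shown and of the exon 4 Brca1 siRNA were found 0 times in the coding transcripts of the 7 genes. The exon 2 Bard1 seed had 4 such matches in Thbs1 and 1 each in Postn, Tnc and Sparc, the exon 3 Bard1 seed had 1 in Fn1, and the exon 3 Brca1 seed had 1 each in Tnc and Sparc. A match of 7 bases is a description only.

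The calls and counts of the 7 genes were not alike during the time course, and whether their courses differ was not tested. Thbs1, Postn, Fn1 and Sparc had fallen by day 1, Tnc was called lower on days 2 and 6 and on no other day, Ctgf gave no counts on days 3 and 4, and Cyr61 counts peaked on day 3. On day 6 the 5 tested genes were lower than on day 0, where 11.5% of the 3013 tested genes were called lower and 10.7% higher. The F test over the days called all 5 as well, against 42.5% of all genes. Postn passed the low-count filter through day 0, where it was high, and would not have passed without that group, so the filter favoured its fall and nothing is read from it in this count. The other 4 passed without day 0 too.

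**Figure D1:**
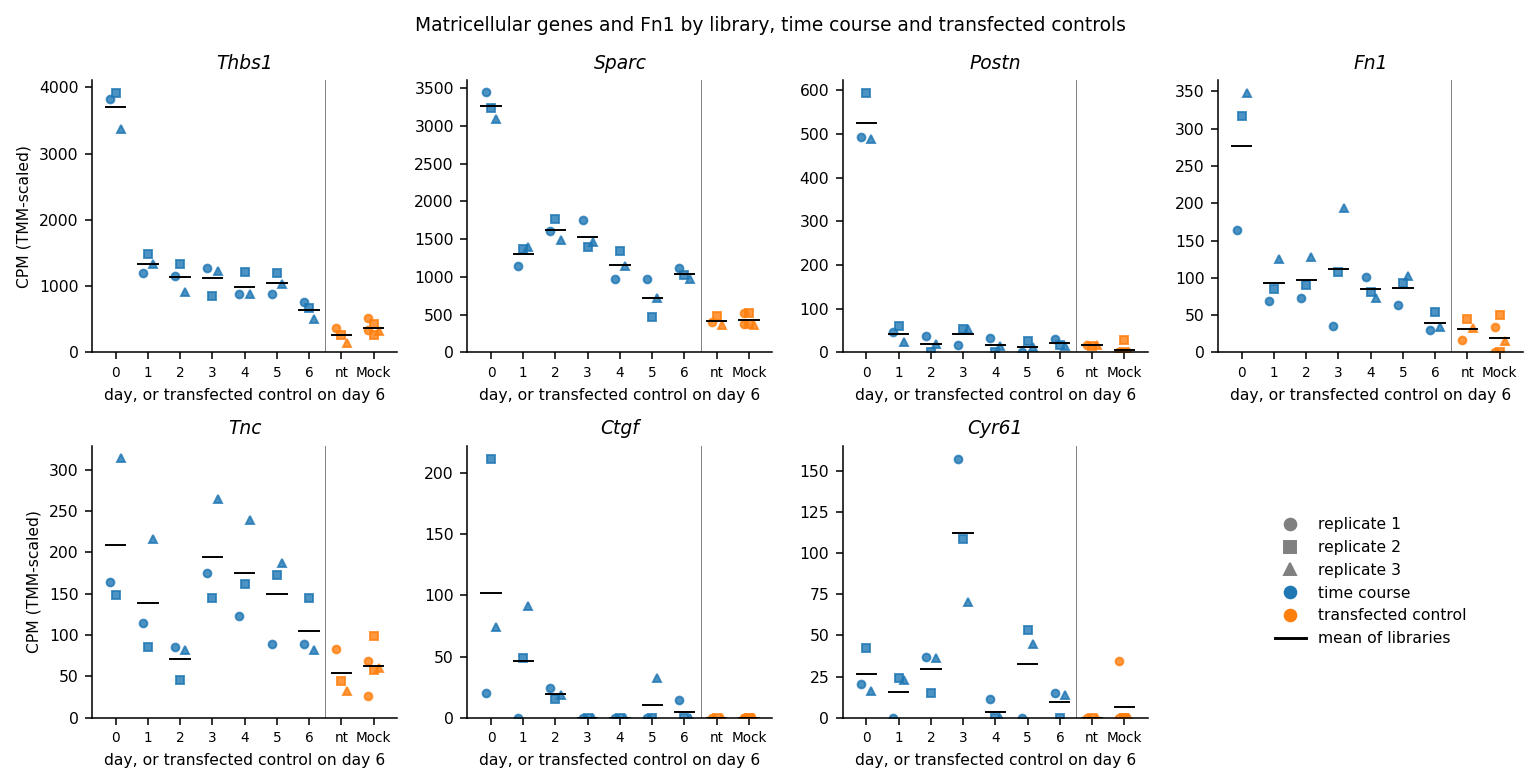
CPM (y axis, TMM-scaled) of the 7 genes in each library over days 0 to 6 of the time course (blue) and in the nt and Mock controls on day 6 (orange); symbols mark the replicate and black bars the mean of the libraries. Thbs1, Sparc, Postn and Fn1 are highest on day 0, and Cyr61 is highest on day 3.

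Thbs1, the thrombospondin, stood at 3818, 3917 and 3377 CPM in the 3 day 0 libraries and at 1192, 1490 and 1332 CPM on day 1. It lay between 849 and 1335 CPM on days 2 to 5 and reached 757, 669 and 498 CPM on day 6. The day 0 libraries lay above every later library. The fitted log2 fold change was -1.44 ± 0.18 (SE, 3 libraries against 3) on day 1 (adjusted p = 1.95e-11) and -2.57 ± 0.20 on day 6 (adjusted p = 4.10e-27). Day 6 was also lower than day 3 (log2 fold change -0.88 ± 0.21, adjusted p = 0.00139), where 8% of genes were called lower. This later drop was no longer called without replicate 3 (log2 fold change -0.61, adjusted p = 0.166) or in limma on the deposited log2 values (-0.70, adjusted p = 0.433), where the day 1 call was lost as well (-1.13, adjusted p = 0.107).

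Sparc, which binds collagen, fell from 3448, 3240 and 3095 CPM on day 0 to 1146, 1368 and 1389 CPM on day 1. It stood at 1604, 1760 and 1486 CPM on day 2 and was lowest on day 5, at 977, 465 and 715 CPM. On day 6 it was at 1113, 1030 and 968 CPM, so that every day 6 library lay below every day 3 library (1749, 1391 and 1460 CPM). The fitted log2 fold change was -1.29 ± 0.17 on day 1 (adjusted p = 3.50e-10), -2.17 ± 0.18 on day 5 (adjusted p = 2.58e-24) and -1.66 ± 0.17 on day 6 (adjusted p = 6.04e-16). The day 6 to day 3 difference of -0.57 ± 0.18 (adjusted p = 0.0211) was lost without replicate 1 (adjusted p = 0.154), 2 (0.0727) or 3 (0.133), without the replicate block (0.114), with no low-count filter (0.174) and in limma (0.541).

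Postn was tested only through its high day 0 level, so the low-count filter favoured a fall from day 0. Its fold changes and adjusted p-values against day 0 are therefore a description, and its fall is not ranked against the other genes. The day 0 libraries held 24, 28 and 59 counts of it (493, 593 and 488 CPM) and the day 1 libraries 2, 5 and 2 (45.8, 61.1 and 22.8 CPM). All later time course libraries held between 0 and 6 counts. The fitted level on day 1 was 11.8-fold lower (log2 fold change -3.56 ± 0.56, adjusted p = 1.48e-07) and on day 6 25.4-fold lower (log2 fold change -4.67 ± 0.62, adjusted p = 6.47e-11). No condition after day 0 returned towards the starting level, and the next highest mean, in siNcor1, was 65.3 CPM against 525 CPM on day 0.

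Fn1 stood at 164, 318 and 348 CPM on day 0 and at 68.8, 85.5 and 125 CPM on day 1. On day 5 it was at 63.4, 92.9 and 103 CPM, and it ended at 29.7, 54.2 and 34.1 CPM on day 6, below all day 0 libraries. It was called lower on days 1, 2, 4, 5 and 6 but not on day 3 (log2 fold change -1.19 ± 0.43, adjusted p = 0.0528), when the libraries were far apart (35, 108 and 194 CPM). The log2 fold change on day 6 was -2.89 ± 0.52 (adjusted p = 1.97e-06), and the day 6 to day 3 difference was -1.70 ± 0.58 (adjusted p = 0.0307). The day 1 and day 2 calls were lost without replicate 2 (adjusted p = 0.176 and 0.143) and without replicate 3 (0.146 and 0.143), the day 4 and day 5 calls without replicate 3 (0.112 and 0.0581), and the day 6 to day 3 call without replicate 2 (0.0655) or 3 (0.685). That last call was also lost without the replicate block (0.0613), and it and the day 1 and day 2 calls were lost with no low-count filter and in limma (adjusted p from 0.0668 to 0.518).

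Tnc followed none of these courses. It stood at 164, 148 and 314 CPM on day 0, dipped to 85.7, 45.5 and 82.1 CPM on day 2, and was back at 175, 144 and 264 CPM on day 3, within the day 0 range but for 1 library just below it. It ended at 89.0, 145 and 81.8 CPM on day 6. The dip on day 2 (log2 fold change -1.59 ± 0.44, adjusted p = 0.00597) and the day 6 level (-1.20 ± 0.42, adjusted p = 0.0248) were called, and days 1, 3, 4 and 5 were not (adjusted p from 0.269 to 0.857). Replicate 3 was the highest library on days 0, 1, 3, 4 and 5. Without it the day 2 and day 6 calls were lost (adjusted p = 0.317 and 0.68), and the day 2 call was also lost without replicate 2 (adjusted p = 0.0502). The day 6 call was lost too without the replicate block (0.0702), and both were lost with no low-count filter (0.0616 on day 2 and 0.209 on day 6) and in limma (0.21 and 0.415). The count of 5 genes lower on day 6 includes this call.

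The share of tested genes called lower against day 0 was 6.8% on day 1, 6.44% on day 2, 5.81% on day 3, 10.4% on day 4 and 15% on day 5. Of the 5 tested genes of this group, 4 were called lower on day 1, 5 on day 2, 3 on day 3, 4 on day 4 and 4 on day 5, and none was called higher. Each of these counts includes Postn, which passed the low-count filter only through day 0, and nothing is read from it here. The other calls were Thbs1 and Sparc on each of these days, Fn1 on all but day 3, and Tnc on day 2.

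The CCN genes were sparse and peaked on different days. Ctgf gave 1, 10 and 9 counts on day 0, then 0, 4 and 8 on day 1, 2, 1 and 2 on day 2, and 0 in all 6 libraries of days 3 and 4. The summed level on day 3 was at least 6.96-fold lower than on day 0, and that on day 4 at least 10.0-fold lower, with 3 counts over the group as the floor. From day 0 to day 2 together it was 10.1 times the level of days 3 to 6 (37 against 6 counts, exact 95% interval 4.24 to 29.4, counting error only). This split of the days lies where the counts reached 0, so the ratio restates the counts and is no separate support. Of the 6 late counts, 5 came from 1 day 5 library.

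Cyr61 gave 1, 2 and 2 counts on day 0, 0, 2 and 2 on day 1, and 3, 1 and 4 on day 2. On day 3 it gave 9, 6 and 8 counts (157, 108 and 70.4 CPM), and on day 4 it gave 1, 0 and 0. It gave 0, 4 and 7 counts on day 5 and 1, 0 and 2 on day 6. Each day 3 library lay above every other library of the time course. The day 3 level was 4.41 times that of day 0 (23 against 5 counts, exact 95% interval 1.64 to 14.8) and 33.1 times that of day 4 (23 against 1, interval 5.38 to 1364), counting error only. Day 5 was in turn 11.6 times day 4 (11 against 1 counts, interval 1.68 to 499), and day 3 was 9.13 times day 6 (23 against 3, interval 2.76 to 47.5). With no low-count filter, edgeR's F test over the days gave adjusted p = 0.00102 for Cyr61 and 3.15e-07 for Ctgf over 30778 genes, of which 3.12% were called. In that fit the day 3 to day 0 difference of Cyr61 was not called (log2 fold change 2.08 ± 0.76, adjusted p = 0.409), and the day 6 to day 3 difference was (-3.10 ± 0.81, adjusted p = 0.0238). The same fit called Ctgf lower on day 6 than on day 0 (-4.21 ± 1.00, adjusted p = 0.00325).

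The transfected controls held less Thbs1 and Sparc than untransfected day 6 cells, which bears on every comparison with nt. Transfection and any other difference in handling between these groups cannot be told apart. Thbs1 stood at 366, 269 and 147 CPM in nt, below the 757, 669 and 498 CPM of untransfected day 6 cells. Sparc stood at 400, 479 and 359 CPM in nt, again below all 3 day 6 libraries. The log2 differences, -1.36 ± 0.27 and -1.34 ± 0.22, were called (adjusted p = 2.93e-05 and 1.93e-07), where 11% of genes were called lower. Tnc, Fn1 and Postn were not called (log2 fold change -0.98, -0.21 and -0.21).

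The Mock libraries held Thbs1 at 259 to 516 CPM (median 343) and Sparc at 358 to 519 CPM (median 378). Mock did not differ from nt in any of the 5 genes past the threshold in edgeR's test, with 1 of them, Thbs1, at an unadjusted p under 0.05 (log2 fold change 0.62 ± 0.30, adjusted p = 0.38), beside 1.56% of genes called in either direction. DESeq2 and limma also called 0 of them. Against untransfected day 6, Mock was lower in Thbs1 (-0.74 ± 0.25, adjusted p = 0.0146) and Sparc (-1.29 ± 0.21, adjusted p = 1.51e-07), with 11.5% of genes called lower. The Thbs1 call was lost without replicate 1 (adjusted p = 0.0825) or 2 (0.145), without the replicate block (0.0548), with no low-count filter (0.097) and in limma (0.58), and the 2 groups overlapped in Thbs1. Neither nt nor Mock held a count of Ctgf, nt held none of Cyr61, and Mock held 1. Mitochondrial transcripts made up 16.0% to 16.6% of counts in untransfected day 6 libraries, 22.8% to 26.3% in nt and 22.9% to 28.6% in Mock, and their part in these differences was not tested.

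In the 9 siRNAs with a called gene, the counts of the target were set against those expected from the other transfected libraries, and the exact 95% interval of the ratio (counting error only) included 1 in all 9. No reduction was therefore detected here, and for all targets but Ep300 the counts were few. The study checked the Wdr5, Bard1 and Brca1 knockdowns by RT-qPCR at an earlier time, which is not analysed here. Wdr5 gave 7 counts where 8.09 were expected (ratio 0.866, interval 0.348 to 1.78), Bard1 0 where 1.31 were, and Brca1 4 where 3.84 were. Cdk1 gave 4 against 5.94, Irx1 1 against 2.70, Jarid2 3 against 4.60, Trp53 5 against 4.61 and Tead2 2 against 3.34. Ep300 was the best counted target, with 17 against 12.2 (ratio 1.40, interval 0.814 to 2.24). A ratio below 0.814 lies outside that interval, so the counts do not show the reduction of Ep300 transcripts that the label siEp300 implies.

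Of the 5 tested genes, 3 (Thbs1, Sparc and Tnc) were higher in siWdr5 than in nt. Thbs1 stood at 1426, 1834 and 1557 CPM, Sparc at 1757, 1478 and 1860 CPM, and Tnc at 172, 114 and 285 CPM. None of these libraries overlapped the nt libraries. The fold differences were 6.63 for Thbs1 (log2 2.73 ± 0.24, adjusted p = 4.49e-21), 4.18 for Sparc (2.06 ± 0.21, adjusted p = 2.75e-17) and 3.99 for Tnc (1.99 ± 0.48, adjusted p = 6.82e-04). Among all genes, 12.2% were called higher and 15.1% lower. Thbs1 and Sparc were called in all 10 alternative fits that kept nt in the control (log2 fold change 2.39 to 3.09 and 1.88 to 2.24), while Tnc was lost without replicate 3 (1.21, adjusted p = 0.22) and in limma on the deposited log2 values (adjusted p = 0.294).

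Fn1 and Postn were not called in siWdr5. Fn1 gave 39.6, 128 and 85.4 CPM in siWdr5 against 16.7, 44.9 and 32.7 CPM in nt, a log2 difference of 1.36 with a 95% interval of 0.09 to 2.64 and adjusted p = 0.0992. It was higher in siWdr5 in each of the 3 replicates (2.38, 2.85 and 2.61-fold), and whether it differs from the called genes was not tested. The nt libraries held 1, 3 and 4 counts of it. With the Mock libraries added to nt, Fn1 was called in siWdr5 (1.63, adjusted p = 0.0166) and in siBard1 (1.69, adjusted p = 0.0242). Postn gave 26.4, 28.4 and 0 CPM in siWdr5 against 16.7, 15.0 and 16.3 CPM in nt, and the interval of its difference ran from -1.32 to 1.31. Cyr61 gave 5 counts and Ctgf 3 in siWdr5, against 0 of each in nt.

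Thbs1 and Sparc were also higher in siBard1 and siBrca1 than in nt. Thbs1 stood at 1038, 822 and 1118 CPM in siBard1 and at 930, 1163 and 1036 CPM in siBrca1. Sparc stood at 1293, 857 and 1090 CPM in siBard1 and at 1157, 980 and 1060 CPM in siBrca1. All of these libraries lay above all nt libraries. Against nt the log2 differences in siBard1 were 2.08 ± 0.25 for Thbs1 (adjusted p = 7.49e-12) and 1.41 ± 0.22 for Sparc (adjusted p = 7.69e-08), where 5.54% of genes were called higher. In siBrca1 they were 2.12 ± 0.26 (adjusted p = 1.05e-10) and 1.39 ± 0.23 (adjusted p = 1.24e-06), where 2.49% of genes were called higher.

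Tnc was called in siBard1 (128, 103 and 201 CPM; log2 1.63 ± 0.50, adjusted p = 0.0194) and not in siBrca1 (82.7, 182 and 130 CPM; 1.39 ± 0.56, adjusted p = 0.15). The siBard1 call was lost without replicate 2 (adjusted p = 0.0534) or 3 (0.594), without the replicate block (0.0569), with no low-count filter (0.205) and in limma (0.517). The direct contrast of siBard1 and siBrca1 called none of the 5 genes in edgeR's test, with Fn1 alone at an unadjusted p under 0.05, and called 0.863% of all genes in either direction. Its 95% interval ran from -0.65 to 1.13 for Tnc, from -0.45 to 0.38 for Thbs1 and from -0.37 to 0.41 for Sparc.

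**Figure D2:**
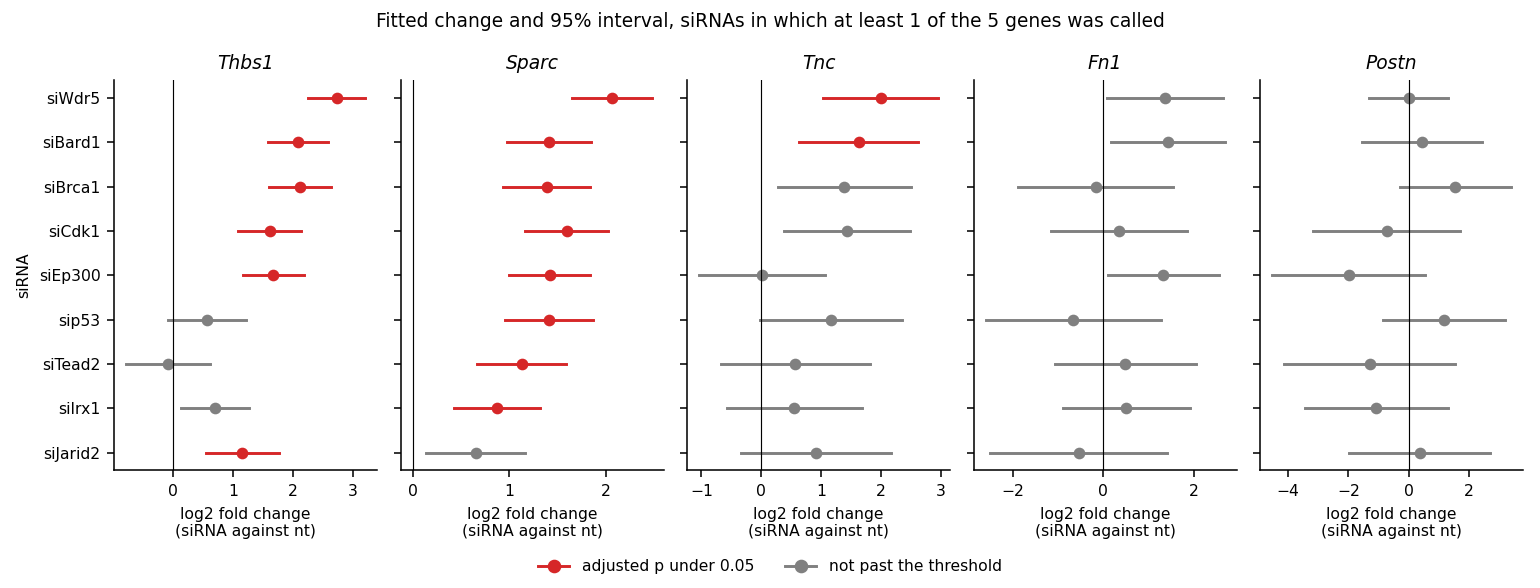
Fitted log2 fold change against nt (x axis) with its 95% interval for the 5 tested genes in the 9 siRNAs (y axis) in which at least 1 of them was called; red marks an adjusted p under 0.05 and grey the rest. Thbs1 and Sparc carry 14 of the 16 calls and Tnc the other 2, while the intervals of Fn1 and Postn are wide and none is called.

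siWdr5 stood above siBard1 and siBrca1 in the 2 most abundant genes. Thbs1 was 1.57-fold higher in siWdr5 than in siBard1 (log2 0.65 ± 0.19, adjusted p = 0.0142) and 1.53-fold higher than in siBrca1 (0.61 ± 0.20, adjusted p = 0.0298). Sparc was 1.57-fold higher than in siBard1 (0.65 ± 0.18, adjusted p = 0.0075) and 1.60-fold higher than in siBrca1 (0.68 ± 0.19, adjusted p = 0.00779). The libraries of the compared groups did not overlap, and 3.19% and 3.02% of genes were called higher in siWdr5. These 4 calls ended without the replicate block, with no low-count filter and in limma, where Thbs1 turned to -0.09 against siBrca1 (adjusted p = 0.97). Against siBard1, Thbs1 was lost without replicate 2 (adjusted p = 0.389) and Sparc without replicate 2 (0.108) or 3 (0.102). Against siBrca1, Thbs1 was lost without replicate 1 (0.0753), 2 (0.197) or 3 (0.106) and Sparc without replicate 2 (0.0529) or 3 (0.133).

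Set beside untransfected day 6 in place of nt, a control chosen after the values were seen, Thbs1 was 1.37 and Sparc 0.73 higher on the log2 scale in siWdr5 (adjusted p = 6.03e-08 and 0.00301). Thbs1 was 0.72 higher in siBard1 (adjusted p = 0.0125) and 0.75 higher in siBrca1 (adjusted p = 0.0129). Sparc was 0.07 higher on the log2 scale in siBard1 (adjusted p = 0.868) and 0.05 higher in siBrca1 (adjusted p = 0.901), and Tnc was not called in siWdr5 (1.02, adjusted p = 0.14) or siBard1 (0.65, adjusted p = 0.387). The mitochondrial share was 21.0% to 23.6% in siWdr5, 19.6% to 25.8% in siBard1 and 16.7% to 19.7% in siBrca1.

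Of the 165 pairs of a tested gene and a siRNA, 16 were called higher than nt and 0 lower. Pairs over all genes were called higher in 1.29% of 99429. Thbs1 was called in 6 of 33 siRNAs, Sparc in 8, Tnc in 2, and Fn1 and Postn in 0. At an unadjusted p under 0.05 there were 4 siRNAs for Fn1 and 1 for Postn. Sparc lay above 0 on the log2 scale in 29 of 33 siRNAs, with a median of 0.48, and Thbs1 in 25 with a median of 0.38. All of these comparisons share the 3 nt libraries.

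Besides the 3 siRNAs above, Thbs1 and Sparc were both higher in siCdk1 and in the libraries labelled siEp300. CDK1 drives entry into mitosis and EP300 is a histone acetyltransferase. In siCdk1 Thbs1 stood at 896, 452 and 828 CPM (log2 1.61 ± 0.27, adjusted p = 4.02e-06) and Sparc at 1311, 1137 and 1243 CPM (1.59 ± 0.22, adjusted p = 6.85e-09), where 1.53% of genes were called higher. The Thbs1 call was lost without replicate 3 (adjusted p = 0.113). In the libraries labelled siEp300 Thbs1 stood at 829, 624 and 801 CPM (1.67 ± 0.26, adjusted p = 1.33e-07) and Sparc at 1358, 624 and 1217 CPM (1.42 ± 0.21, adjusted p = 6.12e-08), where 3.02% were called higher. They also held Ctgf at 6 counts and Cyr61 at 4, and Fn1 at 57.2, 85.1 and 95 CPM (1.32 ± 0.62, adjusted p = 0.192). In limma on the deposited log2 values, Thbs1 and Sparc were not called in siEp300 (adjusted p = 0.402 and 0.22), nor Thbs1 in siCdk1 (0.0877).

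Sparc alone was called in 3 siRNAs. In sip53 it stood at 1365, 855 and 1017 CPM (log2 1.41 ± 0.23, adjusted p = 5.13e-06; 0.863% of genes called higher) and Thbs1 at 420, 428 and 265 CPM (0.56 ± 0.33, adjusted p = 0.475). In siTead2, which targets a TEAD factor, Sparc stood at 1012, 1181 and 608 CPM (1.13 ± 0.23, adjusted p = 0.00205; 0.431% called higher) and Thbs1 at 207, 429 and 113 CPM, with an interval of -0.79 to 0.61 for its difference. In siIrx1 Sparc stood at 664, 948 and 680 CPM (0.87 ± 0.22, adjusted p = 0.0109; 0.431% called higher). Whether the 2 genes differ in their response to a siRNA was not tested. The siTead2 call was lost without replicate 2 (adjusted p = 0.145) and the siIrx1 call without replicate 2 (0.128) or 3 (0.201), without the replicate block (0.112), with no low-count filter (0.0771) and in limma (0.744).

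Thbs1 alone was called in siJarid2 (543, 648 and 454 CPM; log2 1.15 ± 0.31, adjusted p = 0.0408; 0.398% of genes called higher). The call held in 4 of 11 fits and was lost, among others, without the replicate block (adjusted p = 0.275), without replicate 2 (0.181) and without replicate 3 (0.392). The other 24 siRNAs changed none of the 5 genes past the threshold, beside 1.21% of 72312 pairs over all genes in either direction.

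**Figure D3:**
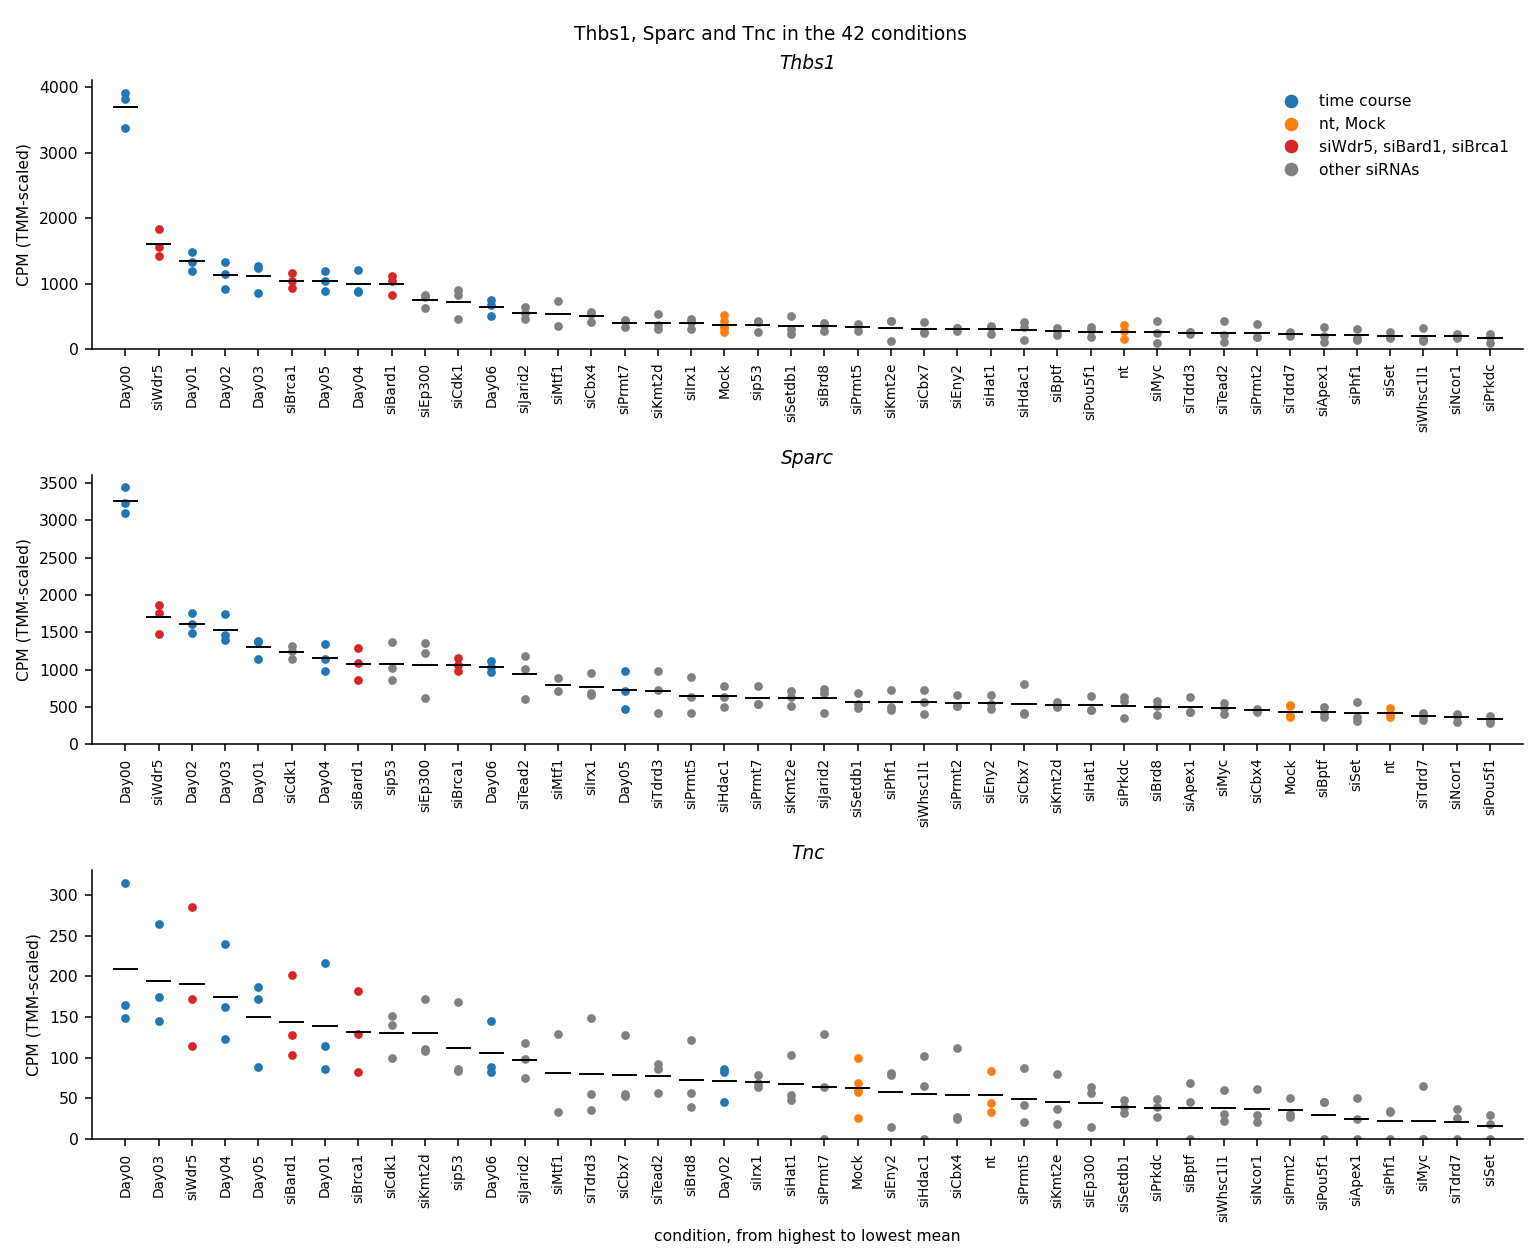
CPM (y axis, TMM-scaled) of Thbs1, Sparc and Tnc in each library of the 42 conditions (x axis, from the highest to the lowest mean); black bars are means, and colours mark the time course, nt and Mock, siWdr5, siBard1 and siBrca1, and the other siRNAs. Day 0 is highest for all 3 genes, and siWdr5 comes next for Thbs1 and Sparc.

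Over the 42 conditions Thbs1 was highest on day 0 (3704 ± 288 CPM, SD, n = 3), followed by siWdr5 (1606 ± 208) and day 1 (1338 ± 149), and lowest in siPrkdc. Only 1 of the 41 neighbouring pairs in this order, day 0 and siWdr5, had libraries that did not overlap. For Sparc the order began with day 0, siWdr5 and day 2, and 2 neighbouring pairs did not overlap, day 0 from siWdr5 and day 3 from day 1. Postn (day 0 from siNcor1) and Cyr61 (day 3 from day 5) had 1 such pair each, and Tnc, Fn1 and Ctgf had 0. The pairs were ordered by the means of the same libraries, and such gaps were not counted over all genes. They are a description only, and that of Postn lies at day 0, through which it passed the low-count filter. Below the top, the order of these genes is not resolved by 3 libraries a condition.

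Thbs1, Sparc and Tnc had correlated levels over all conditions, though Tnc less so over the days. The correlation of Fn1 and of Postn with Thbs1 was higher over the days than over the transfected conditions, a difference that was not tested. On condition means of log2 CPM with the replicate removed, Pearson's r over 42 conditions was 0.86 for Thbs1 and Sparc, 0.82 for Thbs1 and Tnc and 0.77 for Sparc and Tnc. Over the 35 day 6 conditions of transfected cells the 3 values were 0.75, 0.76 and 0.73. Over the 7 days alone they were 0.82 for Thbs1 and Sparc, 0.48 for Thbs1 and Tnc and 0.26 for Sparc and Tnc. Thbs1 and Fn1 had r = 0.98 and Thbs1 and Postn 0.92 over the days, but over the transfected conditions these pairs had 0.28 and 0.09. On this scale Postn stood at 9.10 on day 0 and between 5.31 and 6.11 on days 1 to 6. Its value over the days thus rests largely on day 0, through which it passed the low-count filter. The points share the sequencing pools, and depth limits the values of Postn and Fn1.

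**Figure D4:**
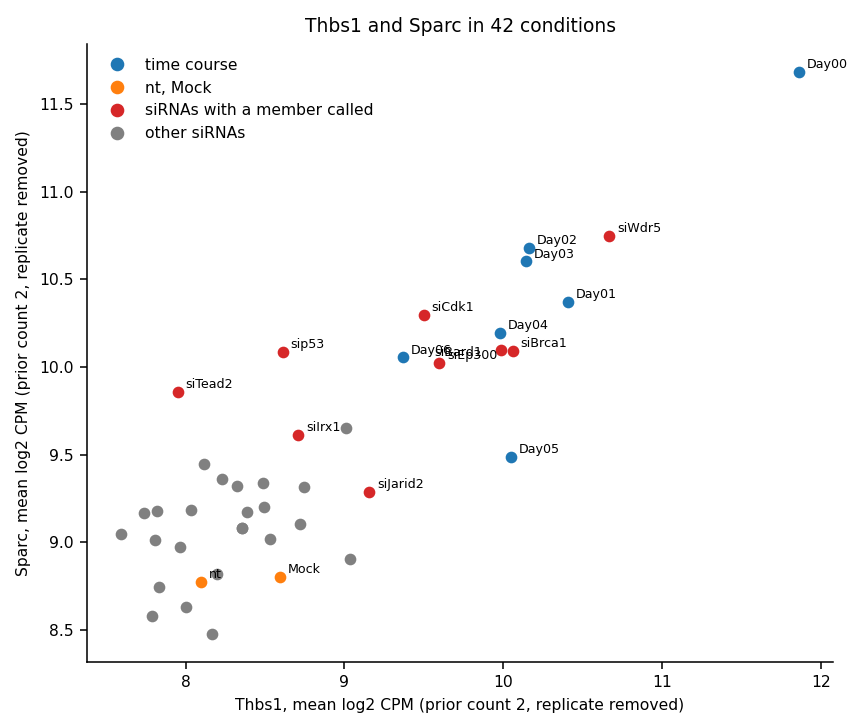
Mean log2 CPM of Thbs1 (x axis) and Sparc (y axis) in the 42 conditions, with a prior count of 2 and the replicate removed; blue marks the time course, orange nt and Mock, red the 9 siRNAs with a called gene and grey the other 24. The points rise together (r = 0.86), with siTead2 and sip53 high in Sparc for their Thbs1 and day 5 low.

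The genes with the most similar profiles over the 42 conditions were Timp3 (r = 0.90), Actb (0.89) and Ddah1 (0.88) for Thbs1, and Ckap4 (0.89), Actb (0.89) and Ddah1 (0.88) for Sparc. For Tnc they were Thbs1 (0.82), Gpx1 (0.79) and Col12a1 (0.78). For Fn1 they were Tpm1 (0.75), Cfl1 (0.73) and Msn (0.72), and for Postn Aspn (0.81), Atp1b1 (0.78) and Prss35 (0.77).

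Related genes were read from lists. Each count below is to be read beside the share of all tested genes called, 11.5% lower and 10.7% higher on day 6 and, against nt, 12.2% higher in siWdr5, 5.54% in siBard1 and 2.49% in siBrca1. Listed genes under the low-count filter were not tested. Among 8 tested of 32 genes of other matricellular proteins, 5 were lower and 1 higher on day 6 than on day 0. Igfbp7, which binds insulin-like growth factors, fell most (log2 fold change -4.69, adjusted p = 9.26e-14), followed by the CCN gene Wisp1 (-3.77, adjusted p = 1.90e-11) and the fibulin Fbln2 (-2.00), while the galectin Lgals3 rose by 2.93 (adjusted p = 7.02e-12). In siWdr5, 4 of the 8 were higher than nt and 0 lower, among them Fbln2 (log2 3.60, 308 against 24.3 CPM), Wisp1 (2.28), the follistatin-like gene Fstl1 (1.27) and the thrombospondin Thbs2 (0.98). In siBard1 and siBrca1, 2 of the 8 were higher, Fstl1 and Lgals1 (named after their values were seen). The median log2 fold change of the list in siWdr5 was 1.12, against 0.00 for all genes.

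Of 27 receptors 6 were tested, and of these the integrin subunits Itgav and Itgb1 had fallen by day 6 (log2 fold change -1.10 and -1.77), and the syndecan Sdc2 had risen (1.09). In siWdr5 1 of the 6 was called, Cd44, a receptor of hyaluronan and Spp1 (1.04 higher, adjusted p = 6.77e-04), while in siBard1 Cd44 and the thrombospondin receptor Cd47 were (0.85 and 1.01 higher, named after their values were seen). Of 11 tested (of 14) collagens and proteoglycans that these proteins bind, 6 fell and 3 rose by day 6. Col5a2 (-2.95) and Bgn (-2.71) led the falls, and Lum (3.67) and Dcn (3.18) the rises. In siWdr5, 9 of the 11 were higher, led by Col1a1 (2.67, 1055 against 172 CPM), Col12a1 (2.23), Col1a2 (2.05) and Col5a2 (1.99), against 3 in siBard1 and 2 in siBrca1, where Dcn was lower (-1.53). The median of this list in siWdr5 was 1.56.

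Of 23 other YAP and TEAD target genes, 9 were tested, of which 5 were lower on day 6 than on day 0, 0 were higher and 4 were not called, among the latter Ccdc80 (log2 fold change 0.83) and Tgfb2 (-0.13). The 5 were led by Amotl2 (log2 fold change -2.22), the kinase gene Axl (-1.86), Crim1 (-1.79) and Rbms3 (-1.24). In siWdr5, 6 of the 9 were higher than nt, led by Ccdc80 (2.68), Tgfb2 (2.25), Amotl2 (1.94) and Myof (1.87). In siBard1, 2 were higher and in siBrca1 none was, and the list's median was 1.87, 0.91 and 0.71 in siWdr5, siBard1 and siBrca1. Of 3 tested (of 9) factors of the pathway, Tead1 and Vgll3 had fallen by day 6 (-1.20 and -1.59) and were 1.43 and 1.82 higher in siWdr5.

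Of 7 tested (of 19) genes of the TGF-beta pathway, 3 fell by day 6: Tgfb1i1 (log2 fold change -5.2), the feedback gene Pmepa1 (-3.62) and Id2 (-0.92). In siWdr5, 4 of the 7 were higher than nt, Pmepa1 (2.84), Tgfb2 (2.25), Id3 (2.08) and Id1 (1.18). In siBard1, 2 were higher, Pmepa1 (3.70) and Id1 (1.78), both named after their values were seen, and in siBrca1 none was. Pmepa1 rested on 4.99 CPM in nt.

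Markers of the starting cells went only partly with Thbs1 and Sparc. The fibroblast sum lay above nt in every siRNA group shown here, in sip53 and siTead2 without a call of Thbs1. All 9 fibroblast markers had counts in each group of the time course shown and in nt, and their summed level ran from 5953 to 7538 CPM on day 0, 2512 to 3457 on day 6, 1479 to 1750 in nt, 4979 to 5245 in siWdr5, 2846 to 3864 in siBard1 and 2234 to 3265 in siBrca1. It was also above nt in siCdk1 (2722 to 3486 CPM), siEp300 (2411 to 4503), sip53 (2606 to 3213) and siTead2 (2061 to 2782), with Pdgfrb at 0 in the last 2. Of the 6 tested, 4 fell by day 6 (log2 fold change -1.67 for Col1a2, -1.58 for Col1a1, -1.29 for Prrx1 and -1.12 for Vim), and 6 were higher in siWdr5, 5 in siBard1 and 2 in siBrca1. In siWdr5 these were led by Col1a1 (2.67), Col1a2 (2.05), Prrx1 (1.62) and Col3a1 (1.56). Of 6 smooth muscle and myofibroblast markers 4 were tested, and these fell by day 6 (log2 fold change -5.90 for Tagln, -4.28 for Acta2, -3.69 for Myl9 and -3.52 for Cnn1). All 4 passed the low-count filter without day 0 too. Against nt, 3 were higher in siWdr5 (Myl9 3.65, Tagln 3.24, Acta2 2.19). All 4 were higher in siBard1 (Myl9 4.55, Cnn1 3.63, Tagln 3.22, Acta2 2.65) and 2 in siBrca1 (Myl9 3.87, Acta2 2.11), values named after they were seen. The summed level of the 6 markers was 4372 to 5967 CPM on day 0, 145 to 490 on day 6 and 73.5 to 83.3 in nt, where Myh11 and Des were at 0. It was 408 to 640 CPM in siWdr5, 497 to 782 in siBard1 and 296 to 648 in siBrca1. It was 218 to 548 CPM in siCdk1, 511 to 1029 in siEp300, 84.0 to 279 in sip53 (Des at 0) and 56.3 to 129 in siTead2 (Myh11 at 0), which overlapped nt.

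The epithelial markers summed to 74.2 to 253 CPM on day 6, 106 to 150 in nt and 26.4 to 56.9 in siWdr5, where Krt19, Cldn4 and Cldn6 were at 0. They summed to 0 to 69.4 CPM in siBard1, 0 to 114 in siBrca1 and 30.3 to 83.0 in siCdk1. In siEp300 (85.8 to 184 CPM) the sums overlapped nt, and in siTead2 (215 to 253) and sip53 (168 to 314) they lay above it. The pluripotent markers summed to 20.5 to 44.5 CPM on day 6, 40.8 to 167 in nt and 9.49 to 56.9 in siWdr5, with Zfp42 at 0 in all 3 groups, and lay between 13.9 and 140 CPM in the other 6 siRNAs just named. The macrophage markers summed to 132 to 226 CPM on day 0, of which Lyz2 had fallen by day 6 (log2 fold change -1.87), and to at most 29.9 in nt and 114 in siWdr5, with Csf1r, Tyrobp, Fcer1g and C1qa at 0 in both. The endothelial markers reached at most 34.1 CPM on days 0 and 6, in nt and in siWdr5. Pecam1, Cdh5 and Emcn were at 0 on day 6, in nt and in siWdr5. Of the other siRNAs named here, siBard1 (47.9 CPM), siEp300 (42.9) and sip53 (85.6) reached higher, and siBrca1, siCdk1 and siTead2 did not. The erythroid markers gave no counts. The part of a changing cell makeup in the levels of the 7 genes was not tested.

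Scaling by RLE size factors in place of TMM shifted the all-gene median (log2 fold change) by between -0.21 and 0.17, and no call of the 5 genes was lost. It moved the split of all calls. On day 6 against day 0 it gave 229 higher and 431 lower in place of 321 and 347. For nt against day 6 it gave 345 and 436 in place of 470 and 332, and for siWdr5 against nt 490 and 315 in place of 367 and 454. It gave 100 and 265 in place of 155 and 194 on day 2, 184 and 412 in place of 250 and 313 on day 4, 376 and 622 in place of 507 and 453 on day 5, and 186 and 340 in place of 239 and 241 for day 6 against day 3. For Mock against nt it gave 39 and 11 in place of 31 and 16. Against nt it gave 80 and 30 in place of 46 and 32 for siCdk1, 116 and 52 in place of 91 and 80 for siEp300, 16 and 7 in place of 12 and 9 for siJarid2, 32 and 21 in place of 26 and 33 for sip53, and 15 and 13 in place of 13 and 18 for siTead2. For siWdr5 it gave 138 and 119 in place of 96 and 156 against siBard1 and 137 and 151 in place of 91 and 210 against siBrca1, and for siBard1 against siBrca1 12 and 21 in place of 6 and 20.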

How the data were processed

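The authors pooled barcoded CEL-Seq2 libraries into 3 sequenced replicate pools, mapped reads to mm10 with Bowtie2 and corrected molecular identifiers with the CEL-Seq2 pipeline (GENCODE vM13). The deposited counts are UMI-corrected and not normalized. The deposited log2 values are CPM made by the authors with scater and scran, without low-quality libraries and with the batch regressed out.

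From the counts, edgeR 4.0.16 (R 4.3.3) fitted 127 libraries, those in both tables, with TMM factors, filterByExpr by condition, and condition plus replicate pool as terms. The study regressed batch effects without naming the batch, and the replicate pool was taken as the block here. Deviations correlated with a median r of 0.098 within a pool and -0.068 between pools. P-values were Benjamini-Hochberg adjusted over 3013 genes, threshold 0.05. Left out were siMtf1 replicate 3 (7981 counts) and 1 Mock replicate 3 library (6403). There were 0 unused per-sample columns. Intervals of count ratios are exact at 95%.

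Alternatives used RLE factors, no low-count filter, no replicate block, every library, each replicate left out, nt and Mock together, time course libraries only, DESeq2 1.42.0, and limma 3.58.1 on the log2 values. The members and gene lists were chosen with earlier results of these data known. Named from each list were at most 4 called genes of largest change on day 6 against day 0 and in siWdr5 against nt, and the 3 genes most like each tested member. Promoters come from RefSeq (GRCm38.p6) and siRNA sequences from the study's library table.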

Additional observations from a re-analysis of the deposited data

Results flagged for a closer look

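Among the 5 Mock libraries, 1 stood far from the others in Cyr61 (34.3 CPM, 1 count) and 1 in Postn (28.8 CPM, 1 count), by Dixon's criterion. The other 4 libraries were at 0 for both genes, so that any single count meets the criterion. The usual rate of about 1 in 20 groups marked by chance, which is for continuous values, does not hold for these counts, and nothing is read from them.

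In edgeR's main fit the direct contrasts of siWdr5 with siBard1 and with siBrca1 called Thbs1 and Sparc. Thbs1 was higher by 0.65 on the log2 scale than in siBard1 (adjusted p = 0.0142, edgeR) and by 0.61 than in siBrca1 (adjusted p = 0.0298). Sparc was higher by 0.65 (adjusted p = 0.0075) and by 0.68 (adjusted p = 0.00779). All 4 calls were lost without the replicate block, with no low-count filter, without replicate 2 and in limma on the deposited log2 values. In limma Thbs1 turned to -0.09 against siBrca1.

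The siMtf1 replicate 3 library, left out for its total of 7981 counts, held 5 counts each of Thbs1 and Sparc, or 626 CPM of all its counts. The highest nt libraries held 293 and 399 CPM of all counts.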

How the results depend on the processing

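Calls of Thbs1 and Sparc in siWdr5, siBard1 and siBrca1 against nt held in all 11 fits that kept nt in the control. Of 59 single-gene comparisons, direction and call held in 58 with RLE factors, 58 with DESeq2, 57 with every library, 47 without the replicate block, 45 without the low-count filter, 38 with limma, and 41 to 56 with a replicate left out. The number of called genes over the days (5) was 3 to 6 with a replicate left out, and 3 without replicate 3. For siWdr5 against siBard1 it was 2, but 0 without the low-count filter, 0 without the replicate block, 0 with limma and 0 to 2 with a replicate left out. Against siBrca1 it was 2, but 0, 0, 0 and 0 to 1. The 16 siRNA pairs became 10 with limma and 11 to 17 with a replicate left out. With untransfected day 6 as the control, an alternative chosen after seeing the data, siBard1 and siBrca1 each had 1 called gene in place of 3 and 2. Without the replicate block 11 single-gene calls were lost: the 4 direct ones of siWdr5, Fn1 and Sparc on day 6 against day 3, Tnc on day 6 and in siBard1, Thbs1 in Mock against day 6 and in siJarid2, and Sparc in siIrx1.

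Postn in siWdr5 turned from -0.003 to 0.16 with RLE factors, 0.013 without the replicate block, 0.042 with every library, -0.57 to 0.77 with a replicate left out (0.77 without replicate 3), 0.51 with nt and Mock together and 0.18 with DESeq2. Fn1 in siBrca1 turned from -0.17 to 0.44 without replicate 2 (-0.69 to 0.44 with a replicate left out), 0.094 with nt and Mock together and 0.015 with limma. Thbs1 in siWdr5 against siBrca1 turned to -0.093 with limma. None of these reversed values was called, and the causes were not tested. Depth limits Postn, Fn1, Ctgf and Cyr61 most, with 0 to 4 counts per nt library.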
